A study of Mus musculus with 16 samples.

Results

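Brain RNA of neonatal mice heterozygous for connexin 43 was set against brain RNA of neonatal mice that lack connexin 32. The comparison takes 8 of the 16 arrays of the series, 4 labelled Cx43 heterozygous and 4 labelled Cx32 null, chosen by their labels alone. Both groups were C57BL mice, and neither is wild type, so a difference can lie in either line. The other 8 arrays, 4 of wild-type and 4 of Cx43 null brain, are used below only to show where the remaining genotypes stand. The labels give both alleles without naming a construct, promoter or cell type, and they do not say whether a sample is 1 brain or a pool of brains. Nor do they say that the samples are separate animals, and a p-value here weighs a difference only against the scatter of 4 samples per group.

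Gap junctions are channels that join the cytoplasm of neighbouring cells, and each channel is built from connexin proteins. Connexin 43, encoded by Gja1, is the main connexin of astrocytes and is also made by radial glia, meninges and blood vessels. Connexin 32, encoded by Gjb1, belongs to oligodendrocytes and Schwann cells, the myelinating glia, which are still few in the newborn brain. The comparison therefore asks how the brain transcriptome of a mouse with 1 altered connexin gene differs from that of a mouse with another.

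Each sample was hybridised on 1 cDNA array beside a reference pooled from adult tissues, and a level below is the log2 ratio of brain to that reference after centring each array on its median. A difference is always Cx43 heterozygous minus Cx32 null, on the log2 scale. Between 21293 and 23075 spots had a value on the heterozygous arrays and between 21010 and 23144 on the Cx32 null arrays. Pairs of arrays correlated at 0.90 to 0.93 within the heterozygous group, at 0.86 to 0.94 within the Cx32 null group and at 0.82 to 0.91 between the groups. The median SD of a transcript over the 4 arrays was 0.199 in heterozygous and 0.214 in Cx32 null brain. On all 8 arrays the median of the neuron markers (2.03 to 2.51) lay far above that of liver and kidney genes (-4.89 to -3.22). Of the defining markers, Tubb3 of neurons stood at 2.96 and 2.49 and Fabp7 of radial glia at 4.51 and 4.05 in heterozygous and Cx32 null brain. Mbp of myelin stood at -2.57 and -2.45. Csf1r and Aif1 of microglia, Pecam1 and Flt1 of endothelium and Olig1 and Sox10 of oligodendrocytes were not measured. In 400 spots of the table, 1 or both of Cx32 null replicate 1 and heterozygous replicate 4 were out of step with the other arrays, and no gene named below by the rule lies there.

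Gja1 was lower in Cx43 heterozygous brain. Its level was -1.09, -1.27, -1.25 and -1.86 on the heterozygous arrays and 0.13, 0.10, -0.07 and 0.27 on the Cx32 null arrays. The groups did not overlap, and the heterozygous mean lay 1.47 below the Cx32 null mean (difference -1.47 ± 0.17 SE, 2.78-fold, limma adjusted p = 0.00597). The 95% interval of the difference ran from -1.86 to -1.09. Without any 1 of the 8 arrays the adjusted p stayed at or below 0.028. It was 0.0608 when all 16 arrays shared 1 estimate of the spread. In bulk brain RNA, fewer cells that make Gja1 and less Gja1 RNA per cell cannot be told apart. Where the spot lies relative to the altered part of the allele is not given in the sources used here. The mean level of Gja1 was 1.56 ± 0.63 in wild-type and -1.83 ± 0.96 in Cx43 null brain (SD, n = 4 each), so the heterozygous arrays lay near the null arrays and the Cx32 null arrays lay between these and wild type.

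No spot carries the name Gjb1, so the Cx32 null label could not be checked on its own gene. The other measured members of the connexin and pannexin list were Gjb5, a connexin of skin and placenta, and Panx1, which forms large-pore membrane channels. Gjb5 differed by -0.26 ± 0.17 (limma adjusted p = 0.436) with overlapping values. Panx1 stood at 4.43, 2.75, 3.74 and 4.26 on the heterozygous arrays and at 2.63, 2.63, 2.66 and 2.13 on the Cx32 null arrays. The groups did not overlap, but the difference of 1.28 ± 0.33 missed the threshold (limma adjusted p = 0.0852). Heterozygous replicate 2 sat just above the Cx32 null arrays. Panx1 passed in only 1 of the 8 fits that left out an array, the one without that replicate (difference 1.63, adjusted p = 0.0213). In the others the adjusted p reached 0.181, and it was 0.069 with all 16 arrays in the fit.

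The sequence before the start of Gja1 is shown with those of Ednrb and Muc1, chosen to show 1 more lower gene and 1 higher gene that passed in every fit without 1 array. Each is the 250 bases before the RefSeq start in GRCm38.p6, at chr10:56377050-56377299 on the + strand for Gja1, chr14:103843702-103843951 on the - strand for Ednrb and chr3:89228806-89229055 on the + strand for Muc1. Capitals mark matches, on either strand, to TATAAA (the TATA box), GGGCGG (the core of the GC box), CCAAT (the CCAAT box) and TGAGTCA (the AP-1 element).
Gja1: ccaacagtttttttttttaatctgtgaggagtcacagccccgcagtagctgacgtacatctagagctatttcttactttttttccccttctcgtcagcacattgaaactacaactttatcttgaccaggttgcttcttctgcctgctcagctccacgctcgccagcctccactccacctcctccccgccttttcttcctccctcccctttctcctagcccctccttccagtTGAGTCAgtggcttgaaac
Ednrb: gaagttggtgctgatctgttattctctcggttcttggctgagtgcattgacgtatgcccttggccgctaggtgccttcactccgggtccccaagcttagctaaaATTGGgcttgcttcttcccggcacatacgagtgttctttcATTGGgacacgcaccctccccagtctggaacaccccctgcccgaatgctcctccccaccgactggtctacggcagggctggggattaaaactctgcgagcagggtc
Muc1: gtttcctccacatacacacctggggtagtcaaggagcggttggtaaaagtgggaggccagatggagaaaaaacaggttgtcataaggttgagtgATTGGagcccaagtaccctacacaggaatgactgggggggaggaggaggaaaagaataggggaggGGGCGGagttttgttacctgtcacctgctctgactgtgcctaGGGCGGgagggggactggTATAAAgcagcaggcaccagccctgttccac
The Gja1 window held 1 TGAGTCA and no match to the other letters. Ednrb held 2 CCAAT matches, read on the opposite strand. Muc1 held 1 TATAAA, 2 GGGCGG and 1 CCAAT. Over 32851 RefSeq promoters, windows with a match made up 12.4% for TATAAA, 32.7% for GGGCGG, 33.8% for CCAAT and 4.46% for TGAGTCA. A match describes the letters only, and the arrays did not measure binding.

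Of 14547 transcripts tested over all spots, 272 passed (1.87%, limma, Benjamini-Hochberg adjusted p under 0.05), 146 higher in heterozygous brain (1.00%) and 126 lower (0.866%). Named genes made up 139 of them, 66 higher and 73 lower. The size of a passing difference had a median of 0.93 and ran from 0.48 to 3.76, and 120 transcripts passed with a difference of at least 1 (0.825%). Values of the groups did not overlap for all 272, which passing on these same values nearly requires. Over all transcripts, 14.1% had groups that did not overlap (5.51% with heterozygous brain higher and 8.59% with it lower). The median difference of all transcripts was -0.045. An unadjusted p under 0.05 was reached by 2835 transcripts (19.5%).

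**Figure D1:**
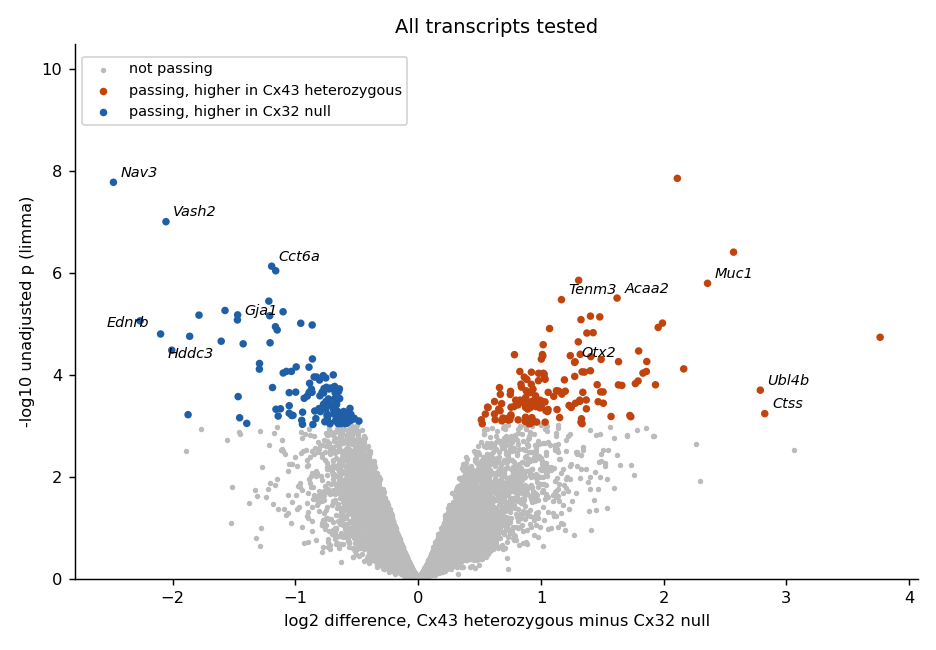
Each of the 14547 transcripts is a point; the horizontal axis gives the log2 difference, Cx43 heterozygous minus Cx32 null, and the vertical axis -log10 of the unadjusted limma p. Orange points pass and are higher in heterozygous brain (146), blue points pass and are lower (126), and labels mark 12 genes of the text, with Nav3 at -2.48 and Ctss at 2.82 on the outer edges of the labelled genes.

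The count of calls depended on single arrays. It fell to 49 without Cx32 null replicate 2, and was 179, 162 and 119 without Cx32 null replicates 1, 3 and 4. Without heterozygous replicates 1 to 4 it was 96, 92, 148 and 73. Of the 272 transcripts, 45 passed in all 8 of these fits, 19 of them named genes. Of the 55 passing genes that the naming rule gives, 19 passed without Cx32 null replicate 2 and 21 without heterozygous replicate 4. The 19 named genes that passed throughout are Nav3, Ednrb, Vash2, Hddc3, Lcn2, Gja1, Sfxn3, Cct6a, 8430436O14Rik, Hps1, Tubb4b and Usp28 on the lower side and Muc1, Sqor, Llgl2, Acaa2, Lyar, Tenm3 and Slc27a1 on the higher side. Some, such as Muc1 and Sfxn3, lack a value on an array, and the fit without that array dropped none of their values. The spots of Usp28 and of Lyar differed widely, as given below.

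Among the named genes that were lower in heterozygous brain, Nav3 showed the largest difference. Nav3 (neuron navigator 3) encodes a microtubule-binding protein of growing axons. Its level was -0.85, -0.70, -0.47 and -0.72 on the heterozygous arrays and 1.55, 2.08, 1.88 and 1.68 on the Cx32 null arrays. The difference was -2.48 ± 0.15, or 5.59-fold (limma adjusted p = 0.000119). Every heterozygous array lay below, and every Cx32 null array above, the level of the reference.

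Ednrb and Vash2 followed. Ednrb encodes endothelin receptor B, found on astrocytes and endothelium. Its level was -0.68, -0.79, -0.62 and 0.54 on the heterozygous arrays and 1.61, 1.80, 1.78 and 1.66 on the Cx32 null arrays (difference -2.10 ± 0.27, adjusted p = 0.00733). Heterozygous replicate 4 stood apart from its group but below every Cx32 null array. Vash2 (vasohibin 2) encodes an enzyme that removes the last tyrosine of alpha-tubulin. Its level was -0.09, 0.33, 0.26 and -0.11 against 1.97 to 2.37 on the Cx32 null arrays (difference -2.05 ± 0.15, adjusted p = 0.000473). These genes were 4.28-fold and 4.15-fold lower in heterozygous brain.

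Lcn2, Cct6a and Hddc3 gave equally separate groups. Lcn2 encodes lipocalin 2, a secreted carrier of iron-binding siderophores that reactive astrocytes make. It was below the reference in both groups, at -3.54, -3.56, -3.39 and -2.86 in heterozygous and -1.93, -1.57, -1.89 and -1.66 in Cx32 null brain. Both Lcn2 spots were lower, by -1.61 and -1.54 (difference of the gene -1.57 ± 0.17, adjusted p = 0.00583). Cct6a encodes a subunit of the chaperonin that folds actin and tubulin. Its heterozygous values lay within 0.19 and 0.28 and its Cx32 null values within 1.28 and 1.54 (difference -1.19 ± 0.11, adjusted p = 0.00212). Hddc3, an enzyme that removes a phosphate from NADPH, stood at 0.20, -0.32, -0.05 and -0.27 against 1.05, 1.75, 2.14 and 2.08 (difference -1.86 ± 0.24, adjusted p = 0.00788).

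The other lower genes among the 15 with the largest differences had adjusted p between 0.00217 and 0.0442. Psmb9, a catalytic subunit of the immunoproteasome, differed by -1.46 ± 0.30. Sfxn3, a mitochondrial carrier of the sideroflexin family, differed by -1.43 ± 0.17 on 3 heterozygous and 4 Cx32 null arrays. Pde8b, a phosphodiesterase that breaks down cAMP, differed by -1.29 ± 0.18. Clic3, of the chloride intracellular channel family, differed by -1.29 ± 0.19. Fbxo36, an F-box protein, differed by -1.19 ± 0.20. Hps1, a subunit of a complex that makes lysosome-related organelles, differed by -1.15 ± 0.14. St3gal2, a sialyltransferase of ganglioside synthesis, differed by -1.12 ± 0.22 over 2 spots that gave -0.50 and -1.75. The transcript 8430436O14Rik differed by -1.16 ± 0.11. Without Cx32 null replicate 2, Clic3, Fbxo36, Pde8b, Psmb9 and St3gal2 missed the threshold, and without heterozygous replicate 4, Fbxo36, Pde8b, Psmb9 and St3gal2 did. Psmb9 and St3gal2 passed in 1 of the 8 fits that left out an array, and Fbxo36 in 2. With 16 arrays in the fit, Sfxn3 and Clic3 had adjusted p of 0.101 and 0.105.

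**Figure D2:**
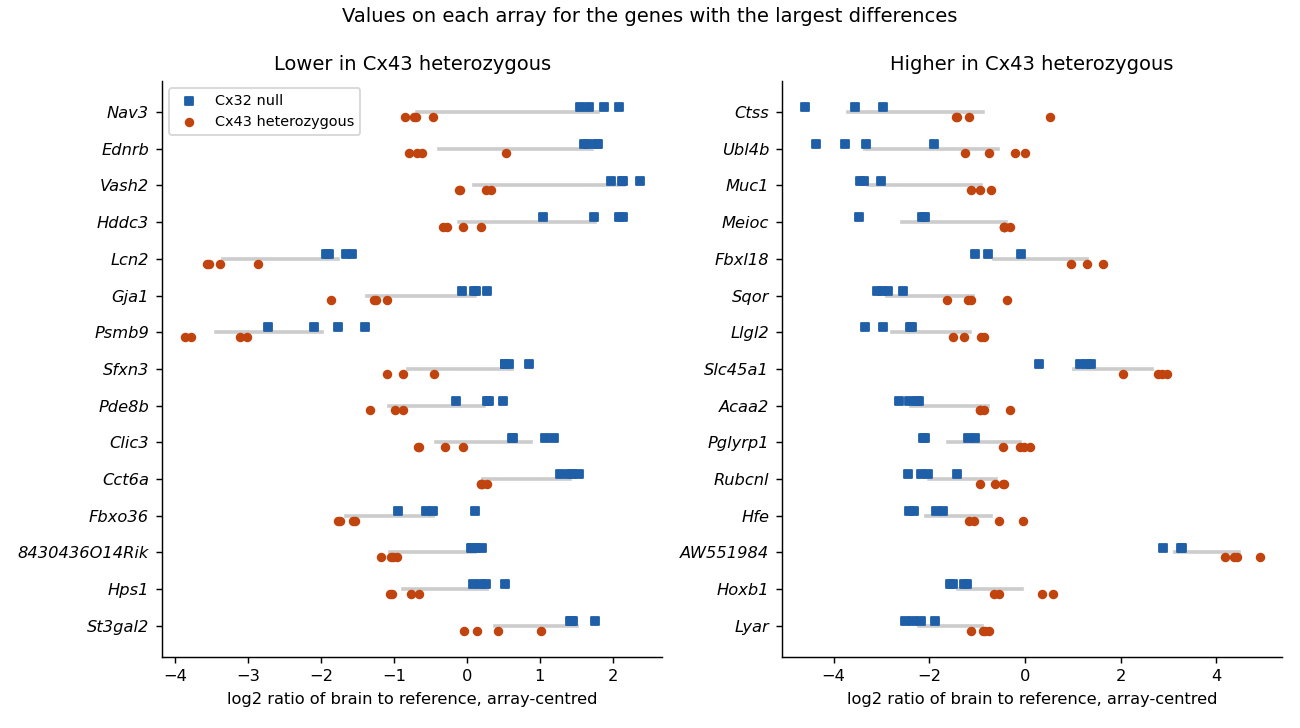
Each row is a gene and each point 1 array: orange circles are Cx43 heterozygous, blue squares Cx32 null, and the grey line joins the group means; the horizontal axis is the array-centred log2 ratio of brain to reference. The 15 genes with the largest differences in each direction are shown, from Nav3 (-2.48) and Ctss (2.82) at the top. No row has overlapping groups, as the rule that chose the genes required.

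On the higher side the largest differences belonged to genes that were below the reference in both groups. Ctss, cathepsin S, a lysosomal protease of microglia and other phagocytes, stood at -1.43, -1.45, 0.52 and -1.17 on the heterozygous arrays. It stood at -2.96, -3.55 and -4.61 on the 3 Cx32 null arrays with a value. The difference was 2.82 ± 0.53, or 7.08-fold (limma adjusted p = 0.0412), with heterozygous replicate 3 far above the rest of its group. Ubl4b, a ubiquitin-like protein best known from testis, ran from -1.25 to 0.01 in heterozygous and from -4.37 to -1.90 in Cx32 null brain (difference 2.79 ± 0.48, adjusted p = 0.0264). Both genes passed in only 2 of the 8 fits that left out an array: Ctss without Cx32 null replicate 1 or heterozygous replicate 3, and Ubl4b without Cx32 null replicate 1 or heterozygous replicate 2. Ctss had no value on Cx32 null replicate 1, so that fit dropped none of its values.

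Muc1, Acaa2 and Sqor passed in every fit that left out 1 array. Muc1 encodes a mucin of epithelial surfaces and had values on 3 arrays of each group. Replicate 1 of both groups gave none, so the fits without those arrays dropped no Muc1 value. The values were -0.72, -0.95 and -1.12 in heterozygous and -3.37, -3.02 and -3.46 in Cx32 null brain (difference 2.36 ± 0.18, 5.12-fold, adjusted p = 0.00287). Acaa2 encodes the thiolase of the last step of mitochondrial fatty acid oxidation. It stood at -0.95, -0.32, -0.94 and -0.85 against -2.22, -2.43, -2.26 and -2.63 (difference 1.62 ± 0.17, adjusted p = 0.00468). Sqor, the mitochondrial enzyme that oxidises hydrogen sulphide, stood at -1.64, -1.12, -0.37 and -1.20 against -2.99, -2.86, -2.55 and -3.10 (difference 1.80 ± 0.25, adjusted p = 0.0122).

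The remaining higher genes had adjusted p between 0.00597 and 0.0449. Meioc, a factor of meiotic prophase, differed by 2.16 ± 0.31, with the heterozygous arrays within -0.44 and -0.31. Fbxl18, an F-box protein, differed by 1.93 ± 0.28 on 3 arrays of each group. Slc45a1, a sugar transporter of brain, was above the reference in both groups and differed by 1.63 ± 0.27. Llgl2, a cell polarity protein of epithelia, differed by 1.63 ± 0.24. Pglyrp1, a secreted protein that binds bacterial peptidoglycan, differed by 1.51 ± 0.26. Rubcnl, a regulator of autophagosome maturation, differed by 1.40 ± 0.22. Hfe, which takes part in the control of iron uptake, differed by 1.37 ± 0.26. Hoxb1, a homeobox gene of the hindbrain, differed by 1.33 ± 0.27, and its heterozygous values fell into 0.59 and 0.35 on 1 side and -0.55 and -0.65 on the other. The transcript AW551984 was far above the reference in both groups, from 4.18 to 4.91 in heterozygous brain, and differed by 1.34 ± 0.19. Lyar, a nucleolar protein of dividing cells, differed by 1.33 ± 0.16, but its 2 spots gave -0.001 and 2.70, so the gene's value rests on 1 spot. Of the 15 higher genes, 6 passed without Cx32 null replicate 2 and 5 without heterozygous replicate 4. The genes lost were AW551984, Ctss, Fbxl18, Hfe, Hoxb1, Pglyrp1, Rubcnl, Slc45a1 and Ubl4b without either array, and Meioc without the second. Of the 15 lower genes, 10 and 11 passed.

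The means of the other genotypes describe on which side a difference lies, with no test. A mean about midway gives no side, and the share of all transcripts with each joint pattern was not counted. Taken singly, wild type was nearer Cx32 null brain for 53.9% of all transcripts, and Cx43 null was nearer heterozygous brain for 44.5%. The counts below are to be read beside these shares. For 11 of the 15 lower genes, both wild-type and Cx43 null brain had means nearer to Cx32 null than to heterozygous brain. In 1 of them, 8430436O14Rik, the wild-type mean was about midway, at -0.45 between -1.05 in heterozygous and 0.11 in Cx32 null brain. Nav3 stood at 1.73 ± 0.73 in wild-type and 1.63 ± 0.27 in Cx43 null brain, beside 1.80 ± 0.23 in Cx32 null and -0.69 ± 0.16 in heterozygous brain (SD, n = 4 each). Ednrb stood at 1.88 ± 0.22 and 1.66 ± 0.21 in wild-type and Cx43 null brain, and Vash2 at 1.80 ± 0.22 and 1.69 ± 0.57. For these genes the heterozygous arrays were alone in being low.

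For Hddc3, Psmb9 and Clic3 both other means lay nearer heterozygous than Cx32 null brain. The Cx43 null mean of Clic3 was about midway, at 0.23 ± 0.86 between -0.42 in heterozygous and 0.88 in Cx32 null brain. Hddc3 stood at -0.10 ± 0.17 in wild-type and 0.06 ± 0.16 in Cx43 null brain, beside -0.11 ± 0.24 in heterozygous and 1.75 ± 0.50 in Cx32 null brain. Gja1 was the only gene of the 15 with wild type nearer Cx32 null and Cx43 null nearer heterozygous brain.

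Of the 15 higher genes, 8 had both other means nearer Cx32 null brain: Acaa2, Ctss, Fbxl18, Hfe, Meioc, Slc45a1, Sqor and Ubl4b. In Hoxb1, Llgl2 and Pglyrp1 both lay nearer heterozygous brain. The Cx43 null mean of Hoxb1 was about midway, at -0.70 ± 0.22 (n = 3) between -0.06 in heterozygous and -1.39 in Cx32 null brain. Pglyrp1 was -0.18 ± 0.20 in wild-type, -0.20 ± 0.32 in Cx43 null and -0.11 ± 0.24 in heterozygous brain, and -1.62 ± 0.57 in Cx32 null brain. Muc1, Rubcnl, AW551984 and Lyar were split, with wild type nearer heterozygous and Cx43 null nearer Cx32 null brain. Muc1 was -1.17 ± 0.58 in wild-type (n = 3) and -2.95 ± 0.12 in Cx43 null brain (n = 4).

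**Figure D3:**
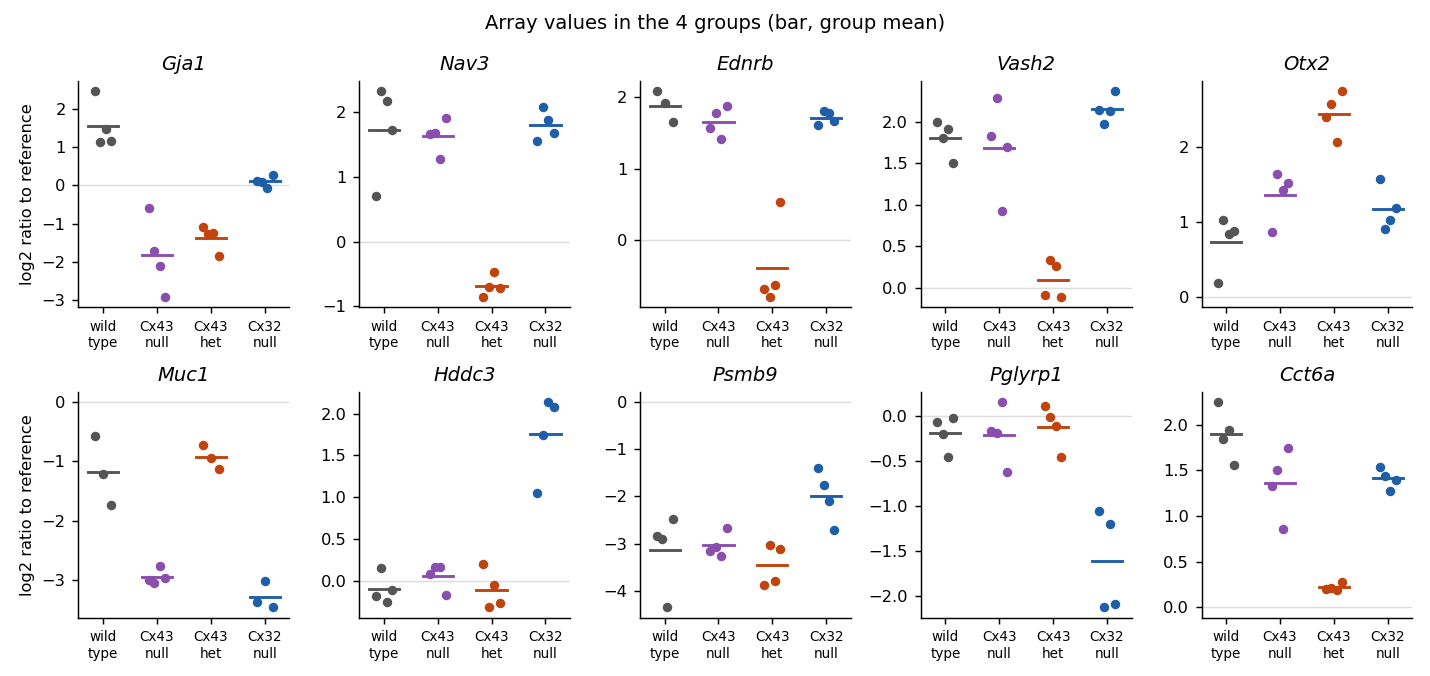
Each panel is 1 gene, each point 1 array and each bar a group mean; the vertical axis is the array-centred log2 ratio of brain to reference, with its own range in every panel, and the horizontal axis gives wild type, Cx43 null, Cx43 heterozygous (het) and Cx32 null. Nav3, Ednrb, Vash2 and Cct6a are low and Otx2 is high in the heterozygous arrays alone, while Hddc3 is high and Pglyrp1 low in the Cx32 null arrays alone; in Psmb9 the lowest Cx32 null array (-2.72) lies among the wild-type and Cx43 null arrays.

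Over all passing transcripts, each of the other genotypes was counted on its own. Wild type was nearer Cx32 null than heterozygous brain for 84 of 143 higher transcripts with enough values (58.7%) and 80 of 124 lower ones (64.5%), beside 53.9% of all transcripts. Cx43 null was nearer heterozygous brain for 53 of 143 (37.1%) and 39 of 124 (31.5%), beside 44.5% of all.

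The difference between Cx43 null and wild-type brain, which shares no brain sample with the main comparison, had the same sign as heterozygous minus Cx32 null for 143 of 267 passing transcripts (53.6%) and for 52.0% of all 14298 transcripts with values. The correlation of both differences across transcripts was 0.066 among the passing and 0.059 among all. Transcripts are not independent replicates, and all arrays share the reference RNA.

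Marker lists of cell types were then read for counts and medians, without a test of a list, against the 1.87% of all transcripts that passed (1.00% higher, 0.866% lower). Of 21 measured genes of astrocytes and radial glia, Gja1 passed and was lower, and the median difference of -0.018 was close to that of all transcripts. Slc1a3, the glutamate transporter of astrocytes, differed by -0.11 (adjusted p = 0.714), and Fabp7 by 0.46 (0.224). No gene passed among 21 neuronal genes (median -0.095), 18 of meninges (0.127), 3 of oligodendrocytes (-0.023) or 11 of red blood cells (-0.238).

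Ctss was the only one of 12 microglial genes that passed, and the list's median difference was 0.036. Of the other 11, 5 lay above 0, led by Itgam at 0.45 and Cd68 at 0.45 (adjusted p = 0.191 and 0.337), and 6 below 0, led by Tlr4 at -0.41 (0.503). The defining markers C1qa and C1qb differed by -0.14 and -0.19 (0.679 and 0.604). At an unadjusted limma p under 0.05, 3 of the 12 genes were higher, Ctss among them, and 0 lower. Of all transcripts, 19.5% reached that p in either direction. The median level of the microglial list lay between -1.35 and -1.18 on the heterozygous and between -1.65 and -1.02 on the Cx32 null arrays, so the groups overlapped. Ednrb and Vash2 were the 2 of 14 genes of endothelium and mural cells that passed. The other 12 did not, Cldn5 and Cdh5 of the endothelial junction differed by 0.21 and 0.03, and the list's median was 0.017.

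Of 7 choroid plexus genes, Otx2 passed. Otx2 encodes a homeobox factor of forebrain, midbrain and choroid plexus, and stood at 2.40, 2.57, 2.06 and 2.74 against 1.57, 0.90, 1.03 and 1.19 (difference 1.27 ± 0.19, limma adjusted p = 0.0155). It missed the threshold without Cx32 null replicate 2 (adjusted p = 0.0606). Ttr, the most abundant transcript of choroid plexus, went the other way without passing (-0.62, adjusted p = 0.11).

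Genes of skeletal muscle, a tissue that is no part of brain, had the highest median of the 42 lists: 0.38 over 13 genes, 11 of them above 0. Mybpc2, a myosin-binding protein of fast muscle, was the 1 that passed (difference 0.92 ± 0.19, adjusted p = 0.0489). It passed in 1 of the 8 fits that left out an array. The median level of the muscle list was -1.27 to -0.98 on the heterozygous and -2.19 to -1.10 on the Cx32 null arrays, and its part in other results was not tested. At an unadjusted limma p under 0.05, 6 of the 13 genes were higher and 0 lower, beside 19.5% of all transcripts in either direction. Ttn differed by 0.82 and Actn3 by 0.58 without overlap of the groups, and neither passed. Mb, myoglobin, stood at -4.81 in heterozygous and -4.83 in Cx32 null brain. The 2 genes below 0 were Actn2 (-0.69) and Myh3 (-0.037).

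Lists of cellular processes were dominated by members that did not pass, and 21 of 42 lists held no passing gene. The list of cholesterol synthesis and uptake had the lowest median of the 42, -0.35 over 16 genes, 13 of them below 0. Fdft1, the squalene synthase, stood at -0.27, -0.35, -0.52 and -0.39 against 0.33, 0.20, 0.32 and 0.39 (difference -0.69 ± 0.11, adjusted p = 0.0201). Cyp51, which removes the 14-alpha methyl group of lanosterol, stood between 0.22 and 0.29 against 0.59 to 0.95 (difference -0.59 ± 0.12, adjusted p = 0.0407).

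These were the 2 cholesterol genes that passed, and 7 of 16 had groups that did not overlap with heterozygous brain lower, beside 8.59% of all transcripts. Srebf2 and Srebf1, the transcription factors of sterol and lipid synthesis, differed by -0.62 and -0.46 (adjusted p = 0.0847 and 0.0844). Idi1, Insig2 and Stard4 differed by -0.53, -0.50 and -0.39. Hmgcs1, Nsdhl and Abca1 were the 3 above 0, by 0.043 at most. The median level of the list was -0.29 to -0.17 on the heterozygous arrays, below 0.05 to 0.37 on the Cx32 null and 0.05 to 0.66 on the wild-type arrays. Over all alternatives the median difference of the list stayed between -0.41 and -0.26. Cyp51 missed the threshold in 7 of the 8 fits that left out an array. Fdft1 missed it in 3, without Cx32 null replicate 2 or heterozygous replicate 2 or 4. With 16 arrays in the fit the adjusted p was 0.596 for Fdft1 and 0.344 for Cyp51.

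Tubulins and microtubule motors gave 3 of 49 genes that passed (6.12%), all lower, beside 0.866% of all transcripts that passed lower, with a list median of -0.17. Tubb4b, a widely made beta-tubulin, stood at 0.43, 0.11, 0.18 and 0.13 against 1.16, 1.44, 1.26 and 1.40 (difference -1.10 ± 0.12, adjusted p = 0.00583), and each of its 3 spots was lower. Tuba8 and Tuba4a, both alpha-tubulins, differed by -1.02 ± 0.20 and -0.62 ± 0.13 (adjusted p = 0.0424 and 0.0427). The spots of Tuba4a gave -0.99 and -0.26. Tubulin genes are near copies of each other, so a cDNA spot may bind RNA of several. Tuba8 and Tuba4a passed in 1 and 0 of the 8 fits that left out an array. With 16 arrays in the fit the adjusted p was 0.0543 for Tubb4b, 0.655 for Tuba8 and 0.566 for Tuba4a.

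The other process lists with a passing member held 1 to 5 each, to be read beside the 1.87% of all transcripts that passed. Of 65 chaperones only Cct6a passed (1.54%). Of 45 genes on the proteasome list, Psmb9 and Psmc3ip passed and were lower (4.44%), and Psmc3ip is a recombination factor that is no proteasome subunit. Among 220 genes of ubiquitin transfer and removal, Fbxl18 and Rnf225 passed higher and Fbxo36, Rnf128 and Usp28 lower (2.27% in all). The spots of Rnf225 gave 0.04 and 1.51 and those of Usp28 gave -1.53 and -0.26, so each gene's value rests mainly on 1 spot. Of 104 genes of extracellular matrix and proteases, Ctss, Col6a6 (a collagen VI chain, 1.20 ± 0.21) and Mmp9 (a gelatinase, 0.67 ± 0.13) passed and were higher (2.88%). Of 98 protein phosphatase genes, Ppme1 (0.97 ± 0.18) and Ptpn11 (0.95 ± 0.18) passed higher and Ppp2r1b (-0.65 ± 0.14) lower (3.06% in all). The 3 Ptpn11 spots gave 3.41, -0.48 and -0.084. With 16 arrays in the fit, the adjusted p was 0.287 for Mmp9, 0.0508 for Col6a6, 0.0584 for Ppme1, 0.133 for Ptpn11, 0.306 for Ppp2r1b and 0.0568 for Rnf128.

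The solute carriers Slc45a1 and Slc27a1, a fatty acid transporter, passed higher and the zinc transporter Slc39a9 lower, of 145 measured (2.07%, beside 1.87% of all transcripts). Slc27a1 stood at 0.04, 0.17, 0.12 and 0.01 against -0.83, -0.56, -0.63 and -0.76 (difference 0.78 ± 0.11, adjusted p = 0.0135). Capg, an actin-capping protein, was the 1 of 64 actin genes that passed (1.56% of the list, difference 1.32 ± 0.23), and Smad5 of BMP signalling the 1 of 63 signalling genes (1.59%, difference -0.64 ± 0.14). Nfkb2, an NF-kappa-B subunit, passed lower (-0.90 ± 0.16) with Psmb9 among 109 immune genes (1.83%). Nav3 was the 1 of 52 genes of axon growth that passed (1.92%). The splicing and RNA-binding genes Ddx55 and Lsm14b, the zinc finger gene Zfp768 and the protein kinase A subunit Prkaca passed higher by 0.67, 0.62, 0.69 and 0.55. The spots of Lsm14b gave 1.24 and 0.007 and those of Zfp768 gave 1.25 and 0.13, so each gene's value rests on 1 spot, and Prkaca differed by 0.068 when arrays were centred within blocks of spots. With 16 arrays in the fit, the adjusted p was 0.167 for Slc27a1, 0.201 for Slc39a9, 0.112 for Capg, 0.29 for Smad5, 0.138 for Nfkb2, 0.215 for Ddx55, 0.0586 for Lsm14b, 0.0577 for Zfp768 and 0.246 for Prkaca. None of 64 cytosolic ribosomal proteins (median -0.091), 68 genes of the respiratory chain (-0.13), 17 of synaptic vesicles (0.018) or 86 of the cell cycle (-0.088) passed.

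**Figure D4:**
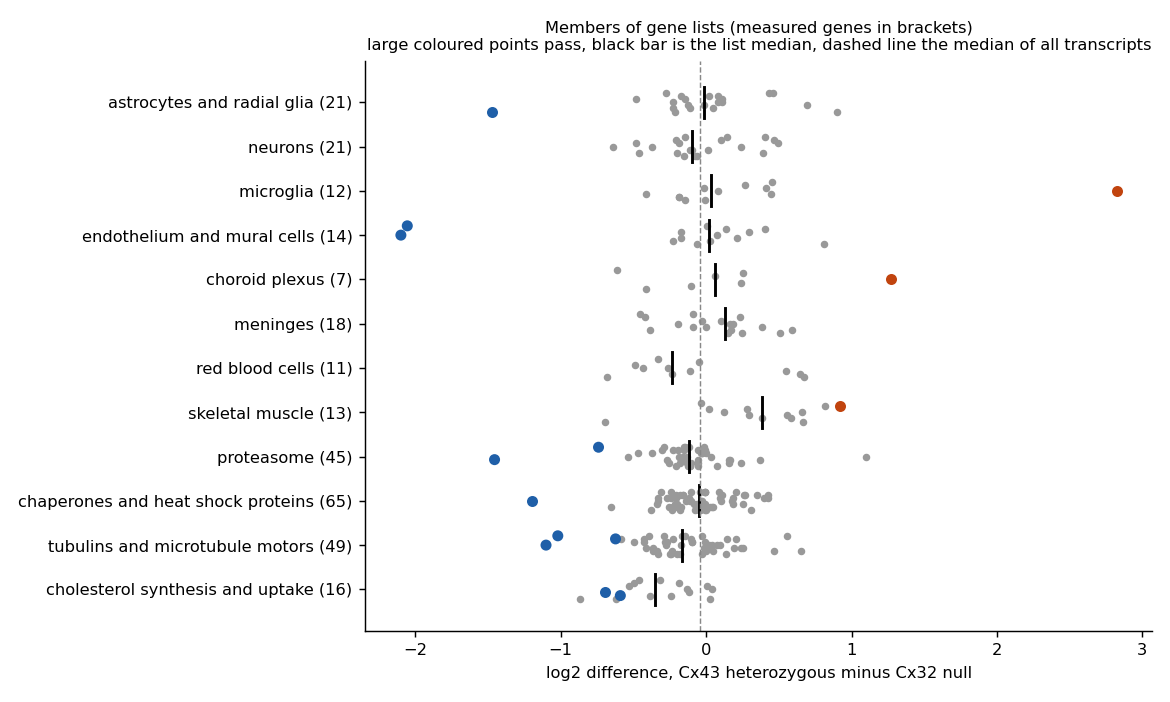
Each row is a list with its number of measured genes, each point a gene at its log2 difference, Cx43 heterozygous minus Cx32 null; large points pass, orange higher and blue lower, small grey points do not pass, vertical offsets only separate points. The black bar is the list's median and the dashed line the median of all transcripts (-0.045); cholesterol genes have the lowest median (-0.35) and skeletal muscle genes the highest (0.38) of the 12 lists.

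The difference between the groups also varied with where a spot lies in the table. The table splits into 48 blocks of 598 spots. In the block of spots 1197 to 1794 the medians were 0.27, 0.31, 0.23 and 0.23 on the heterozygous and -0.12, -0.27, -0.29 and -0.19 on the Cx32 null arrays, a difference of 0.48. Of 250 transcripts measured only there, 18 passed higher and 0 lower by limma. Over all transcripts, 1.00% passed higher and 0.866% lower. Llgl2, Prkaca and 1 of the 2 Lsm14b spots lie in this block. In the block of spots 4785 to 5382 the difference was -0.27, and 1 of 260 transcripts passed higher and 17 lower, Psmc3ip among these. The cause of these offsets was not tested. Sqor, Rubcnl, Otx2 and Slc45a1, all higher, lie close together, at spots 27126, 27132, 27160 and 27200. Psmb9, which was lower, lies beside them at spot 27123. The median difference of their block was 0.019, and a part played by their position was not tested.

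When each array was centred within every block, 157 transcripts passed, 86 higher and 71 lower, and 150 of them were among the 272. Of the 55 passing genes that the naming rule gives, 16 then missed the threshold. Most of them lie outside the blocks of spots 1197 to 1794 and 4785 to 5382. Prkaca differed by 0.068 (adjusted p = 0.758), Llgl2 by 1.15 (0.066) and Psmc3ip by -0.47 (0.134). Hfe and Fbxo36 (0.0506 each) and St3gal2 (0.0649) missed it too. The others were Ppp2r1b, Cyp51, Capg, Mmp9, Zfp768, Mybpc2, Ppme1, Tuba4a, Lsm14b and Smad5. Gja1 differed by -1.51 (0.00776) and Nav3 by -2.47 (0.000137). This centring was chosen after the block medians had been seen.

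**Figure D5:**
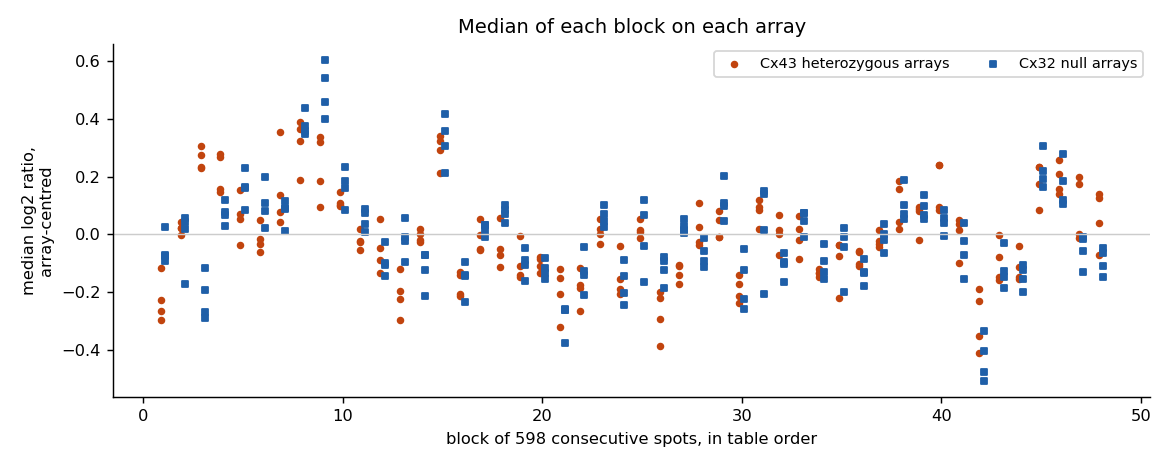
The horizontal axis is the number of the block of 598 consecutive spots in table order and the vertical axis the median array-centred log2 ratio of that block; each point is 1 array, orange circles Cx43 heterozygous and blue squares Cx32 null. The groups separate most in block 3, with heterozygous arrays from 0.23 to 0.31 and Cx32 null arrays from -0.29 to -0.12.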

How the data were processed

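Brain RNA of 16 samples was measured on 2-colour cDNA arrays, with brain in Cy3 and a common adult reference in Cy5, per the labels. The deposited values are 1 log ratio per spot and array, read as log2. The log base, the numerator and the normalization by the authors are not given in the sources used here. If the values are natural logarithms, folds are larger and directions and p-values stay. A positive value was read as brain above reference, the likely direction, since neuron genes exceeded liver and kidney genes on 16 of 16 arrays. Intensities and spot flags were not analysed here, so signal over background is unknown.

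The table has 28704 spots. A single symbol was given to 18511 (18267 through the gene identifier, 244 as the platform gives it), 937 carry more than 1 symbol and 9256 are without an entry. The array median was subtracted from every value. Spots with at least 3 of 4 values in both groups were kept (20387), and spots of 1 symbol were averaged. This left 14547 transcripts, 8767 named genes and 5780 single spots without a symbol.

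The fit of the 8 arrays used lmFit and eBayes of limma 3.58.1, run in R 4.3.3, with 2-sided tests. A transcript passed at an adjusted p under 0.05 (Benjamini-Hochberg over all transcripts). The other groups stayed out of the fit because their spread was larger (median SD 0.27 in Cx43 null, 0.386 in wild type). The number of arrays limits the precision. On simulated data of 14547 transcripts, 61 of 100 changes of 1 log2 unit and 96 of 100 of 2 units were recovered, with 12 false calls. The simulated noise was independent between transcripts and had no offset of blocks, so the false calls need not carry over to these arrays.

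The genes named are every measured connexin and pannexin, the 15 passing genes with the largest difference in each direction, and for each of 42 lists up to 3 passing members in each direction, all with groups that do not overlap and no spot out of step. A gene named outside this rule was chosen after its values were seen, except the defining markers of cell types. A run of 100 spots was out of step where an array's correlation with the median of the other 7 was under 0.5 and at least 0.3 below its usual value. Members and lists were chosen with earlier results of these data known. No pairing by replicate number was seen: deviations of same-numbered samples correlated at -0.196, -0.033, -0.255 and -0.042. Those of differently numbered samples correlated at -0.196 to 0.195. Such correlations cannot show that nothing was shared by number. Alternatives covered scaling, missing values, spots of a gene, spots out of step, the arrays in the fit, the variance model, the replicate block, each array left out and centring within blocks. Promoter sequences come from RefSeq (GRCm38.p6).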

Additional observations from a re-analysis of the deposited data

Results flagged for a closer look

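In 8 of 104 groups of 4 values of the named genes, 1 array stood apart from the other 3 of its group, and chance gives about 1 in 20. Ednrb on heterozygous replicate 4 was 0.54, with the others from -0.79 to -0.62. Ctss on heterozygous replicate 3 was 0.52, with the others from -1.45 to -1.17. Acaa2 on heterozygous replicate 2 was -0.32, with the others from -0.95 to -0.85. Meioc on heterozygous replicate 4 was -0.31, with the others from -0.44 to -0.43. In these 4 genes the array apart was the highest of the heterozygous group.

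Among the Cx32 null arrays, Panx1 on replicate 4 was 2.13, below 2.63 to 2.66 on the others. St3gal2 on replicate 3 was 1.76, above 1.42 to 1.45. Zfp768 on replicate 3 was 0.17, above -0.16 to -0.11. Lsm14b on replicate 1 was 1.28, above 0.95 to 0.99.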

How the results depend on the processing

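The counts of 272 passing transcripts, 146 higher and 126 lower, moved under several alternatives. Leaving out 1 array gave 49 to 179 passing, 28 to 108 higher and 21 to 76 lower. Values as deposited gave 165 passing and 47 lower, and all 16 arrays in the fit 176 and 47. Centring within blocks, added after seeing the data, gave 157, 86 and 71. Of the calls, 53.7% were higher; this share was 71.5% with values as deposited, 64.3% with cyclic loess, 73.3% with 16 arrays and 42.3% where 4 of 4 values were required. With the replicate number as a block, by which no pairing was seen, 4 transcripts passed, 2 higher and 2 lower. Gja1 kept its difference of -1.47 and missed the threshold under the block (adjusted p = 0.0667) and with 16 arrays (0.0608), and in the fits without 1 array ran from -1.56 to -1.31. Lyar turned to -0.001 where 4 of 4 values were required, since only 1 of its spots remained, and Ptpn11 to -0.25 with the median of its spots. The causes were not tested. No other compared alternative turned the direction of a named gene. The fit of each spot on its own was compared only for genes with 1 spot. Among genes with several spots, Lyar had a spot at -0.001 and Ptpn11 had spots at -0.48 and -0.084, against the direction of the gene. Of 40 lists compared, 18 had a median difference that moved with values as deposited, by at least the SD of the list's level among arrays of a group. The median of all transcripts was then 0.047. At most 3 lists moved under any other alternative. Signal over background is unknown, and a difference of 1 log2 unit was often missed in simulated data.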

Other observations

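Several passing genes outside the naming rule were chosen here after their values were seen, and each is given as a value only. Cnst encodes consortin, a trans-Golgi protein that binds connexins and takes part in their delivery to the cell surface. Its mean level was 0.99 in Cx43 heterozygous and -0.007 in Cx32 null brain (difference 0.99, limma adjusted p = 0.0317), with 0.79 in Cx43 null and 1.64 in wild-type brain. Tenm3, a teneurin that guides the wiring of hippocampus and visual system, was higher in heterozygous brain (difference 1.17, adjusted p = 0.00468), at 2.34 against 1.17, with 1.44 in Cx43 null and 1.23 in wild-type brain. Nr4a1, an immediate early gene, was higher by 1.01 (adjusted p = 0.0135), but by 0.53 when arrays were centred within blocks of spots (0.0941). Snhg14, the long non-coding host of a snoRNA cluster, was higher by 1.03 (adjusted p = 0.0473; 0.0601 centred within blocks). Of the genes in this and the next paragraph, Tenm3 was the only one that passed in every fit without 1 array.

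On the lower side, Vdac3, a channel of the outer mitochondrial membrane, differed by -1.07 and Gatm, the first enzyme of creatine synthesis, by -1.03 (adjusted p = 0.0192 for both). Nkx6-2, a homeobox factor of oligodendrocytes and other neural cells, differed by -0.95 (adjusted p = 0.0461; 0.0655 centred within blocks) and stood above the reference in both groups, at 0.93 and 1.88. Ank2, the ankyrin of axons, differed by -0.75 (adjusted p = 0.0321). Nfe2l2, the transcription factor of the antioxidant response, differed by -0.66 over 4 spots (adjusted p = 0.0317).

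The largest passing difference of all, 3.76, belonged to a spot without a single gene symbol, as did 26 of the 45 transcripts that passed in every fit that left out 1 array.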
